A study of Mus musculus with 8 samples.

Results

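The genes described here encode the nuclear part of the mitochondrial energy machinery: subunits and assembly factors of respiratory complexes I to IV and of ATP synthase, proteins of the mitochondrial ribosome, and components of the import channels of the inner and outer membrane. They were chosen by symbol, as every gene whose platform symbol begins with Nduf, Sdha to Sdhd, Uqcr, Cox4 to Cox8, Atp5, Mrpl, Mrps, Timm or Tomm, with 1 probe set per gene. This gave 90 of the 9294 genes tested. By the same prefixes, a reference annotation of the mouse holds 203 protein-coding genes, so 90 of 203 were measured and statements below cover those only. RNA came from keratinocytes of C57BL/6 mice, on 8 one-colour oligonucleotide arrays. The 4 knockout RAS arrays came from Nfkbiz KO keratinocytes and the 4 wild-type RAS arrays from wildtype keratinocytes, and every culture of both genotypes carried v-rasHa, an activated RAS oncogene brought in by transduction 3 days earlier and grown in regular medium without starvation. No culture without v-rasHa was measured, and the labels state neither how the Nfkbiz allele was made nor whether animals were pooled. Nfkbiz codes for IkBz, which acts in the nucleus on genes controlled by NF-kB, and its own transcript was not analysed here, so the knockout was not checked from these values.

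Oxidative phosphorylation couples the passage of electrons along complexes I, III and IV to proton pumping, with complex II feeding electrons from succinate, and ATP synthase (complex V) spends the proton gradient to make ATP. A few core subunits are encoded by mitochondrial DNA and made by the mitochondrial ribosome, while all other subunits and every mitoribosomal protein are encoded in the nucleus and imported through the TOM and TIM channels. Keratinocytes also draw heavily on glycolysis, and oncogenic RAS is known for raising it.

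Signals are deposited log2 values per probe set, and a difference is the knockout mean minus the wild-type mean on that scale. The array medians lay between 4.49 and 4.57, and no detection calls were used here, so signals near or below the medians may be background. Of the 90 genes, 7 had a mean signal under the highest array median (Cox5b, Cox7a1, Cox7b2, Cox8a, Cox8b, Timm8a2 and Tomm20l). Levels of single probe sets are not compared with each other here, since probe sets differ in their response. Of 10 keratinocyte markers listed, 5 were measured to check the labelled cell type. Krt5 was at 13.29 ± 0.06 in knockout RAS and 13.42 ± 0.03 in wild-type RAS arrays, and Perp at 12.72 ± 0.05 and 12.76 ± 0.04 in the same order (SD, n = 4 each). Itgb4 and Col17a1 were also well above the array medians, while Krt15 lay near them, at 4.74 in knockout RAS and 4.63 in wild-type RAS arrays. In bulk RNA, fewer cells of a type and less RNA per cell cannot be told apart.

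The mitochondrial genes differed little between the genotypes. Sdhaf1, an assembly factor of complex II, was the 1 gene of the 90 that rose in knockout RAS cells, and none fell, in limma at a Benjamini-Hochberg adjusted p of 0.05 over all genes tested. The count grew with some settings, to 3 higher and 2 lower with an intensity trend in eBayes and to 2 higher and 2 lower with genes under the highest array median left out. In these settings 5.56% and 4.82% of the mitochondrial genes were called, against 12.1% and 20.8% of all genes in the same fit. In the main fit 1.11% of the mitochondrial genes were called in either direction, against 8.90% of all genes tested, with 4.47% of all genes higher and 4.43% lower. In the range at or above the highest array median, 1 of 83 mitochondrial genes was called, against 14.7% of all genes in that range, with 7.68% of those genes called higher. At an unadjusted p under 0.05, 3 of the 90 were higher (Sdhaf1, Mrpl24 and Ndufaf7) and 4 were lower (Ndufa4l2, Ndufaf5, Ndufv3 and Mrpl55), against 9.90% of all genes higher and 10.9% lower, 20.8% in either direction.

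The sizes were small as well. Differences of the 90 genes ran from -0.27 for Ndufa4l2 to 0.33 for Sdhaf1, with 42 positive and 48 negative. With arrays centred on their medians 59 were positive and 31 negative, so the signs of differences near 0 depend on the scaling. Their median was -0.005, and it was -0.012 over all genes tested, and their median size was 0.043, against 0.074 over all genes and 0.084 over the genes at or above the highest array median. The median standard error was 0.052 for the 90, 0.069 over all genes and 0.062 over genes at or above the highest array median. The median SD within genotypes was 0.051, 0.101 and 0.083 in the same order. The comparison genes thus varied more between arrays, and sizes relative to that spread were not compared. Median signals differed too, at 9.21 for the 90, 4.81 over all genes and 6.99 over genes at or above the highest array median. Sizes were not compared with those of genes matched for signal. For 80 of the 90 the 95% interval of the difference lay within a 1.2-fold change in either direction, and for all 90 within a 1.5-fold change. Without adjustment for the number of genes, these intervals bound each gene's difference and do not show that it is 0. In 16 of the 90 genes (17.8%) the values of the genotypes did not overlap, 9 higher and 7 lower in the knockout, against 15.9% of all genes, 7.91% higher and 7.97% lower, so this count was close to the background. At or above the highest array median the share was 19.3% of the mitochondrial genes and 25.2% of all genes.

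**Figure D1:**
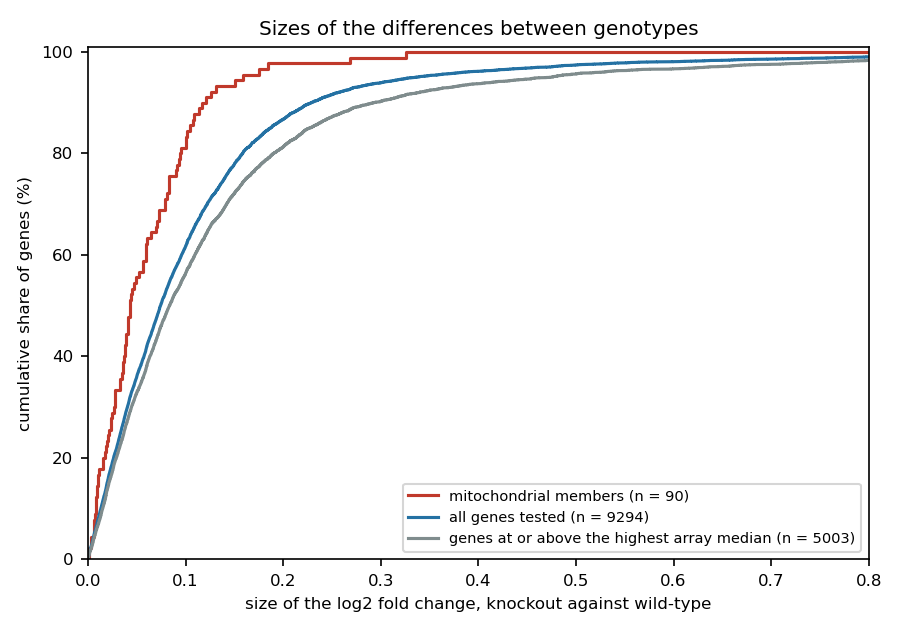
Cumulative share of genes (%) against the size of the log2 fold change between 4 knockout RAS and 4 wild-type RAS arrays, for the 90 mitochondrial genes, all 9294 genes tested and the 5003 genes at or above the highest array median. The curve of the mitochondrial genes lies to the left of both others, with a median size of 0.043 against 0.074 and 0.084. Their median SD within genotypes was also smaller, at 0.051 against 0.101 and 0.083. The median signals were 9.21 against 4.81 and 6.99.

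**Figure D2:**
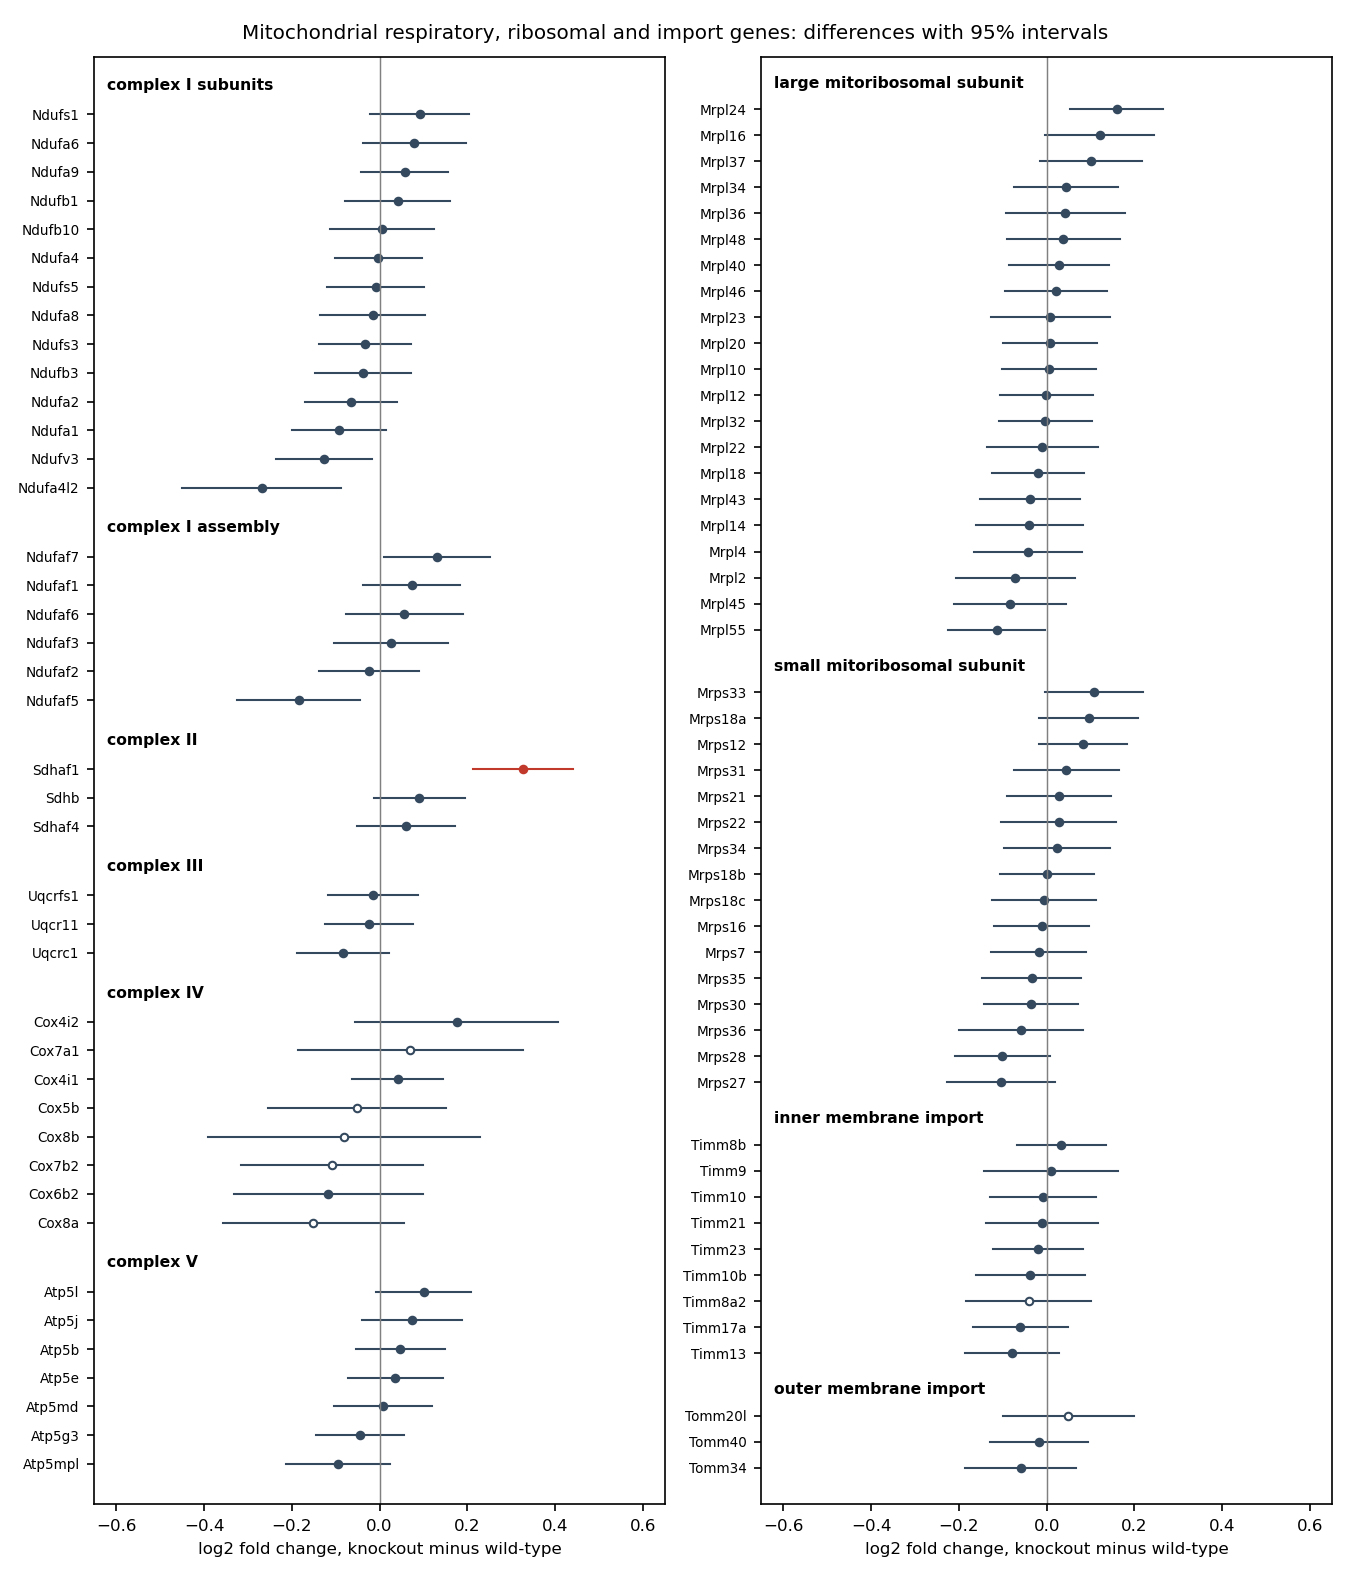
Log2 fold change of each of the 90 genes with its 95% interval from limma (4 arrays per genotype), grouped by role and ordered within each role, with genes whose mean signal lay under the highest array median drawn open. Sdhaf1, drawn in red, is the called gene, at 0.33, and all intervals lie within a 1.5-fold change.

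Complex I, the NADH dehydrogenase, was represented by 14 genes named as subunits and 6 named as assembly factors, and none of these 20 passed the test in limma. At an unadjusted p under 0.05, 2 of the 14 subunit genes were lower, and 1 assembly gene was higher and 1 lower. Over all genes tested 8.90% passed, and at the unadjusted threshold 9.90% were higher and 10.9% lower. Ndufs1 and Ndufs3, core subunits of the arm that carries electrons along iron-sulfur clusters, had differences of 0.09 ± 0.05 and -0.03 ± 0.05 (SE). Ndufv3, an accessory subunit at the NADH-oxidising end, had log2 signals of 9.55, 9.49, 9.60 and 9.50 in knockout RAS arrays, against 9.62, 9.65, 9.70 and 9.68 in wild-type RAS arrays. The genotypes did not overlap there, but the difference of -0.13 ± 0.05 did not pass (limma adjusted p = 0.169). The accessory subunit genes Ndufa1 and Ndufa2 were also lower in every knockout array, with differences of -0.09 and -0.07, and Ndufa9 was higher in every one, with 0.06 (limma adjusted p = 0.316, 0.499 and 0.544). For Ndufa2 the nearest knockout and wild-type values were 10.863 and 10.867. The genotypes did not overlap in 28.6% of the 14 subunit genes. Over all genes this share was 15.9%, and 25.2% at or above the highest array median.

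Ndufa4 and Ndufa4l2 are named after complex I, although the Ndufa4 protein is now assigned to cytochrome c oxidase. Ndufa4l2 is its paralog, known as a target of the hypoxia-inducible factor HIF-1 that lowers complex I activity. Ndufa4l2 had log2 signals of 5.81, 5.63, 5.49 and 5.70 in knockout RAS arrays, against 5.76, 6.05, 5.90 and 6.00 in wild-type RAS arrays. Only knockout replicate 1 and wild-type replicate 1 crossed over, and the difference of -0.27 ± 0.08 (SE), the largest negative difference among the 90, did not pass (limma adjusted p = 0.0731). It passed in 3 of 15 alternatives: without wild-type RAS replicate 1, at -0.32 (limma adjusted p = 0.0360), with the intensity trend (0.0345) and with genes under the highest array median left out (0.0362). Ndufa4 itself had means of 11.46 ± 0.02 in knockout RAS and 11.46 ± 0.01 in wild-type RAS arrays (SD, n = 4 each), with a 95% interval of -0.10 to 0.10 for the difference.

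Assembly factors build and modify complex I without staying in it. Ndufaf5, an enzyme that modifies an arginine of a core subunit, had log2 signals of 6.42, 6.37, 6.38 and 6.17 in knockout RAS arrays, against 6.54, 6.44, 6.57 and 6.53 in wild-type RAS arrays. All knockout values were below all wild-type values, and the difference of -0.18 ± 0.06 (SE) did not pass (limma adjusted p = 0.113). Ndufaf7, an arginine methyltransferase of another core subunit, lay the other way, at 7.21 ± 0.05 in knockout RAS and 7.08 ± 0.07 in wild-type RAS arrays (SD, n = 4 each; limma adjusted p = 0.195). Ndufaf1, a chaperone of the membrane arm, had a difference of 0.07 with a 95% interval of -0.04 to 0.18.

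Complex II, succinate dehydrogenase, was represented by 3 genes, and all 3 differences were positive. Sdhaf1 encodes the factor that helps to place the iron-sulfur clusters into Sdhb, the iron-sulfur subunit, and Sdhaf4 encodes a factor that acts on the flavoprotein subunit. Sdhaf1 had log2 signals of 7.57, 7.59, 7.63 and 7.58 in knockout RAS arrays, against 7.19, 7.24, 7.35 and 7.27 in wild-type RAS arrays. Every knockout array lay above every wild-type array, with a gap wider than the spread within either genotype. The difference of 0.33 ± 0.05 (SE) is a 1.25-fold change in signal with a 95% interval of 1.16 to 1.36, and passed with a limma adjusted p of 0.0020. It passed in all 15 alternatives, with differences of 0.30 to 0.35.

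The gene of its client, Sdhb, had log2 signals of 10.08, 10.02, 10.08 and 10.001 in knockout RAS arrays, against 9.97, 9.96, 9.95 and 9.94 in wild-type RAS arrays. These groups did not overlap either, but the difference was 0.09 ± 0.05 (SE) and did not pass (limma adjusted p = 0.314). Sdhaf4 was at 8.40 ± 0.06 in knockout RAS and 8.34 ± 0.03 in wild-type RAS arrays (SD, n = 4 each; limma adjusted p = 0.566), and its values overlapped. The 95% intervals were 0.21 to 0.44 for Sdhaf1, -0.01 to 0.19 for Sdhb and -0.05 to 0.17 for Sdhaf4. The difference between these genes' changes was not tested.

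Promoter windows of these 3 genes are shown because Sdhaf1 was called and the other two serve the same complex. They are 300 bases of RefSeq sequence of build GRCm38.p6, from 250 before to 50 after the annotated start, written 5′ to 3′. Capitals mark matches, on either strand, to a core of the binding motif of NRF1, an activator of many nuclear mitochondrial genes (GCATGCGC), or to a core of ETS factors such as GABP (CCGGAAG). An NF-kB motif was searched as well, and overlapping matches were kept.
Sdhaf1 (chr7:30322326-30322625, minus strand): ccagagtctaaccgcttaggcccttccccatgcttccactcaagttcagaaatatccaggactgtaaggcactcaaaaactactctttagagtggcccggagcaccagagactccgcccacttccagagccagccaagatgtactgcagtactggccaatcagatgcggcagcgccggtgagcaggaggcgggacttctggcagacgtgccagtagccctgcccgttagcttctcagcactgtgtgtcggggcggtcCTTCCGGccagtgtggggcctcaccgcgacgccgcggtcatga
Sdhb (chr4:140961021-140961320, plus strand): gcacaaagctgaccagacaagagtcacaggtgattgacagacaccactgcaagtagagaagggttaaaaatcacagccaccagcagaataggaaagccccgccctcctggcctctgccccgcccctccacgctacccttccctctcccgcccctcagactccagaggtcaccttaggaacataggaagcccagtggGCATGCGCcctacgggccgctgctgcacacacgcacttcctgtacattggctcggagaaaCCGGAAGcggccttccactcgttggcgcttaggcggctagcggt
Sdhaf4 (chr1:24005591-24005890, minus strand): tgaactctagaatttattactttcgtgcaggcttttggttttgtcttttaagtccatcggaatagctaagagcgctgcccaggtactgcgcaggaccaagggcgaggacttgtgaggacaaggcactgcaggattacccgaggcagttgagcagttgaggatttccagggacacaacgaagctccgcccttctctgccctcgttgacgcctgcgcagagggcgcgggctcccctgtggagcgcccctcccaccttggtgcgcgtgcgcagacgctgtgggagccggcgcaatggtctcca
The Sdhaf1 window held 1 match, the ETS core on the reverse strand. Sdhb held both the NRF1 core and the ETS core, and Sdhaf4 held neither. No NF-kB match lay in the 3 windows, which says only that its letters are absent from them.

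**Figure D3:**
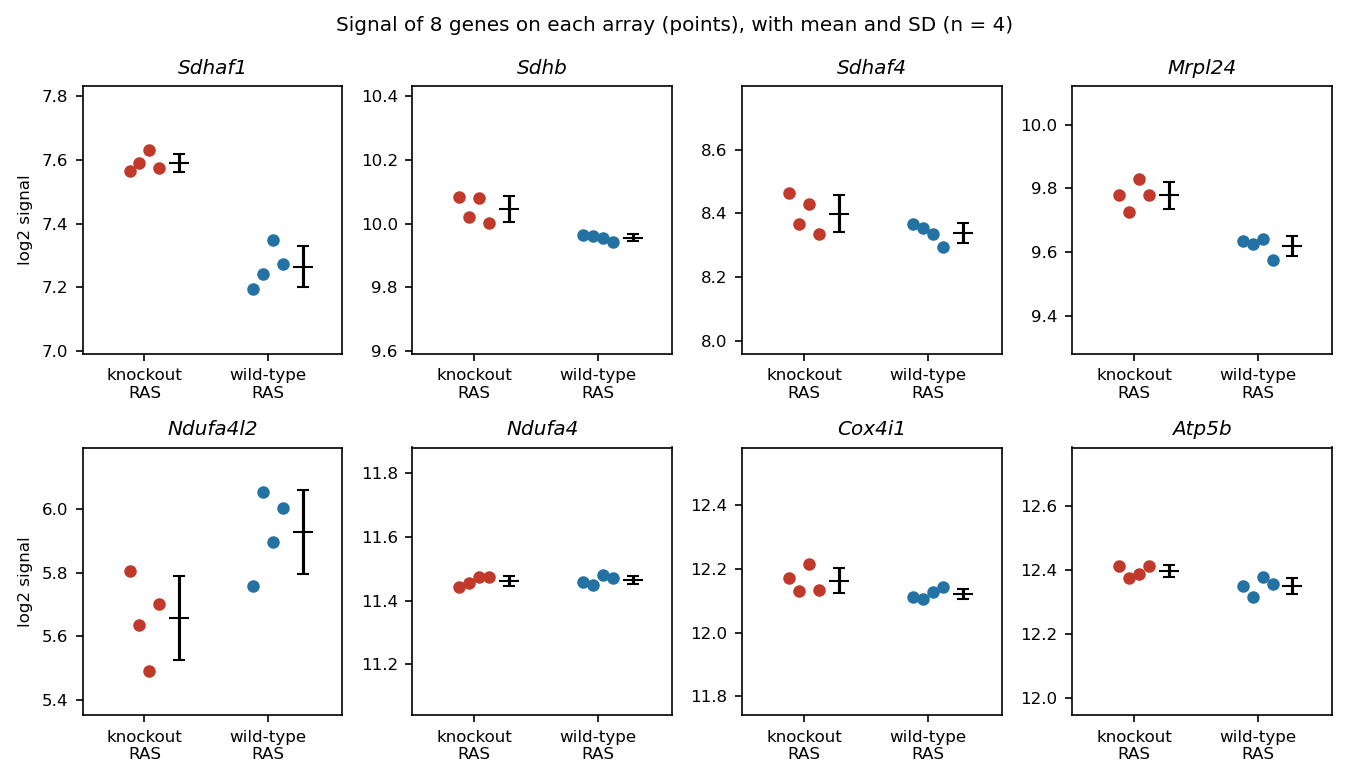
Log2 signal of 8 genes on each array, knockout RAS left of wild-type RAS, with the mean and SD beside the points (n = 4 per genotype), on axes of equal span. Sdhaf1 is at 7.59 ± 0.03 in knockout RAS and 7.26 ± 0.06 in wild-type RAS arrays, while Ndufa4, Cox4i1 and Atp5b overlap between genotypes.

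Complex III passes electrons from ubiquinol to cytochrome c, and none of its 3 measured genes passed in limma, at an adjusted or an unadjusted threshold. Over all genes tested 8.90% and 20.8% passed in the same order. Uqcrc1, a core protein of the matrix side, had log2 signals of 11.01, 10.93, 10.97 and 10.91 in knockout RAS arrays, against 11.04, 11.02, 11.04 and 11.04 in wild-type RAS arrays. The knockout values lay just below the wild-type values, with a difference of -0.08 ± 0.05 (SE; limma adjusted p = 0.366). Uqcrfs1, the Rieske iron-sulfur protein, and Uqcr11, a small subunit, had differences of -0.015 and -0.024, and both signs turned with arrays centred on their medians.

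Complex IV, cytochrome c oxidase, reduces oxygen, and several of its subunits exist as isoforms of different tissues. None of the 8 measured genes passed at an adjusted or an unadjusted threshold in limma, where 8.90% and 20.8% of all genes did. Of the 8, 5 lay under the highest array median. Cox4i1, the widespread isoform of subunit 4, was at 12.16 ± 0.04 in knockout RAS and 12.12 ± 0.02 in wild-type RAS arrays (SD, n = 4 each), a difference of 0.04 with a 95% interval of -0.06 to 0.15. Its counterpart Cox4i2, an isoform of lung that responds to low oxygen, had log2 signals of 4.74, 4.69, 5.17 and 4.75 in knockout RAS arrays, against 4.81, 4.53, 4.73 and 4.58 in wild-type RAS arrays. Knockout replicate 3 stood above the other 7 arrays, which overlapped, and the difference of 0.18 ± 0.10 (SE) did not pass (limma adjusted p = 0.392). Without knockout RAS replicate 3 the difference was 0.07.

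Of the subunit 8 pair, Cox8a, the widespread isoform, was at 3.81 ± 0.15 in knockout RAS and 3.96 ± 0.16 in wild-type RAS arrays, and Cox8b, the isoform of heart and muscle, at 4.45 ± 0.34 and 4.53 ± 0.12 in the same order (SD, n = 4 each; limma adjusted p = 0.411 and 0.820). Cox5b also lay low, at 3.16 in knockout RAS and 3.21 in wild-type RAS arrays. Each of these genes had 1 probe set, so whether a low signal reflects the probe set or the transcript was not tested. The heart and muscle isoform Cox7a1 and the testis isoforms Cox6b2 and Cox7b2 had differences of 0.07, -0.12 and -0.11, all with 95% intervals that held 0.

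ATP synthase was represented by 7 genes, all with bright signals, of which 5 had a positive and 2 a negative difference. None of the 7 passed in limma, where 8.90% of all genes tested did. Atp5b, the catalytic beta subunit, had log2 signals of 12.41, 12.38, 12.39 and 12.41 in knockout RAS arrays, against 12.35, 12.32, 12.38 and 12.36 in wild-type RAS arrays. Knockout replicate 2 lay just under wild-type replicate 3, and the other knockout arrays were higher than all wild-type arrays, with a difference of 0.05 and a 95% interval of -0.05 to 0.15. Atp5l, subunit g of the membrane part, was higher in every knockout array, at 11.21 ± 0.04 in knockout RAS and 11.11 ± 0.03 in wild-type RAS arrays (SD, n = 4 each; limma adjusted p = 0.284). It passed in 1 alternative, with the intensity trend of eBayes (adjusted p = 0.0428). Atp5g3, which encodes the c subunit of the rotating ring, and Atp5mpl, a small membrane proteolipid, had differences of -0.04 and -0.09. With repeated quantile normalization these were 0.02 and -0.04, so the sign of Atp5g3 turned.

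The mitochondrial ribosome translates the few messages of mitochondrial DNA. Of 37 genes named for it, 21 for the large and 16 for the small subunit, none passed in limma, and 1 was higher and 1 lower at an unadjusted p under 0.05. Over all genes tested 8.90% passed, and at the unadjusted threshold 9.90% were higher and 10.9% lower. Differences ran from -0.11 to 0.16, with a median of 0.006 for the large and -0.002 for the small subunit, and 19 of the 37 were positive (26 with arrays centred on their medians). For 36 of the 37 the 95% interval lay within a 1.2-fold change. The exception was Mrpl24, a protein of the large subunit, with log2 signals of 9.78, 9.73, 9.83 and 9.78 in knockout RAS arrays, against 9.64, 9.62, 9.64 and 9.57 in wild-type RAS arrays. All knockout arrays were higher, by 0.16 ± 0.05 (SE), with a limma adjusted p of 0.0706. The call depended on the settings: Mrpl24 passed in 5 of 15 alternatives, with adjusted p-values from 0.0041 to 0.168 over all of them.

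Other mitoribosomal genes stayed within a narrower range. Mrpl55, at 8.17 ± 0.03 in knockout RAS and 8.29 ± 0.05 in wild-type RAS arrays (SD, n = 4 each), had the largest negative difference of the large subunit, -0.11 (limma adjusted p = 0.223). Mrpl20 was at 9.94 ± 0.03 in knockout RAS and 9.93 ± 0.04 in wild-type RAS arrays. In the small subunit, Mrps12, a protein of the decoding centre, and Mrps33 had differences of 0.08 ± 0.05 and 0.11 ± 0.05 (SE; limma adjusted p = 0.342 and 0.264). Mrpl37 was higher and Mrps28 lower in every knockout array, with 0.10 and -0.10 (limma adjusted p = 0.316 and 0.282). Some symbols do not match the place of the protein: the products of Mrps30 and Mrps18a lie in the large subunit, and that of Mrps36 is now known as a component of the oxoglutarate dehydrogenase complex. Their differences were -0.04, 0.10 and -0.06, and none passed. Mrpl48 was the 1 gene with several probe sets, and its 3 probe sets gave differences of 0.04, -0.01 and -0.01.

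Import genes differed by little. Of 9 inner membrane and 3 outer membrane genes, none passed in limma, at an adjusted or an unadjusted threshold. Over all genes tested 8.90% and 20.8% passed in the same order. In 9 of the 12 the difference was negative (5 with arrays centred on their medians). Of all 9294 genes tested, 5061 had a negative difference in the main fit. All 12 intervals lay within a 1.2-fold change. Timm23, the channel for proteins bound for the matrix, was at 10.68 ± 0.03 in knockout RAS and 10.70 ± 0.02 in wild-type RAS arrays, and Tomm40, the channel of the outer membrane, at 9.65 ± 0.03 and 9.66 ± 0.06 in the same order (SD, n = 4 each). Timm13, a small chaperone of the intermembrane space, was lower in every knockout array, with a difference of -0.08 ± 0.05 (SE; limma adjusted p = 0.401). Timm8b, the partner family member, had 0.03, and Tomm34, a cochaperone of the cytosol, had -0.06. Timm8a2 and Tomm20l, relatives of import genes with signals under the array medians, had -0.04 and 0.05.

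Array by array, the mitochondrial genes moved together by very little. The median deviation of the 90 genes from their own means was 0.009, -0.007, 0.026 and -0.030 in knockout RAS arrays, against 0.009, -0.025, 0.023 and -0.013 in wild-type RAS arrays. The genotypes overlapped fully, and the spread between arrays of 1 genotype, with an SD of 0.024 and 0.022, was larger than the difference between genotypes.

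Other mitochondrial genes were taken from lists outside the rule, each measured in part, and 3 genes passed. These 3 were among 12 carriers and channels, 5 biogenesis regulators and 2 genes of dynamics and mitophagy. None of 73 genes in 5 further lists passed, and 8.90% of all genes tested did. Of 26 genes listed for the TCA cycle and pyruvate dehydrogenase 7 were measured, and of 47 for respiratory assembly and coenzyme Q 23. Of 51 genes for mitochondrial translation and DNA maintenance 21 were measured. Of 30 chaperones and proteases 11 were, and of 21 genes of fatty acid oxidation 11. None of these rose or fell in limma. At an unadjusted p under 0.05, 4 of these 73 genes were higher and 2 lower, against 9.90% and 10.9% of all genes in the same order. Of 80 cytosolic ribosomal protein genes listed, 22 were measured. Their differences ran from -0.04 to 0.10, and none passed at an adjusted or an unadjusted threshold. Of 12 carriers and channels measured from 29 listed, Mpc1 rose and 11 did not pass. Of 5 biogenesis regulators measured from 17 listed, Esrra fell and 4 did not pass. Of 2 genes of dynamics and mitophagy measured from 22 listed, Bnip3 fell and Mief2 did not pass.

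Mpc1, a subunit of the carrier that brings pyruvate into the matrix, had log2 signals of 8.80, 8.82, 8.88 and 8.76 in knockout RAS arrays, against 8.55, 8.49, 8.54 and 8.38 in wild-type RAS arrays. The groups were well apart, with a difference of 0.33 ± 0.06 (SE; limma adjusted p = 0.0037), which passed in all 15 alternatives. Bnip3, a mitophagy receptor gene induced by low oxygen, was at 7.58 ± 0.12 in knockout RAS and 8.33 ± 0.15 in wild-type RAS arrays (SD, n = 4 each), a difference of -0.75 ± 0.08 (SE; limma adjusted p = 0.000186). Esrra, a nuclear receptor that activates oxidative phosphorylation genes, was at 8.12 ± 0.05 in knockout RAS and 8.33 ± 0.08 in wild-type RAS arrays, a difference of -0.21 ± 0.06 (SE; limma adjusted p = 0.0441). The Esrra call was lost in 10 of 15 alternatives, namely with arrays centred on their medians (limma adjusted p = 0.101), with the replicate block (0.114) and without any single array (0.0645 to 0.111).

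1 row of the table, chosen after its values were seen, names a gene of mitochondrial DNA itself: ND5, a core subunit of complex I made by the mitochondrial ribosome. It had log2 signals of 10.55, 10.53, 10.35 and 10.41 in knockout RAS arrays, against 9.88, 10.30, 10.16 and 9.85 in wild-type RAS arrays. All knockout arrays were higher, and the wild-type arrays spread more widely, with an SD of 0.22 against 0.09 in the knockout. ND5 rose by 0.41 ± 0.10 (SE; limma adjusted p = 0.0247). The call was lost without knockout RAS replicate 1 or 2 or wild-type RAS replicate 1 or 4, where the difference lay between 0.35 and 0.39 and the adjusted p in limma was at most 0.0705.

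**Figure D4:**
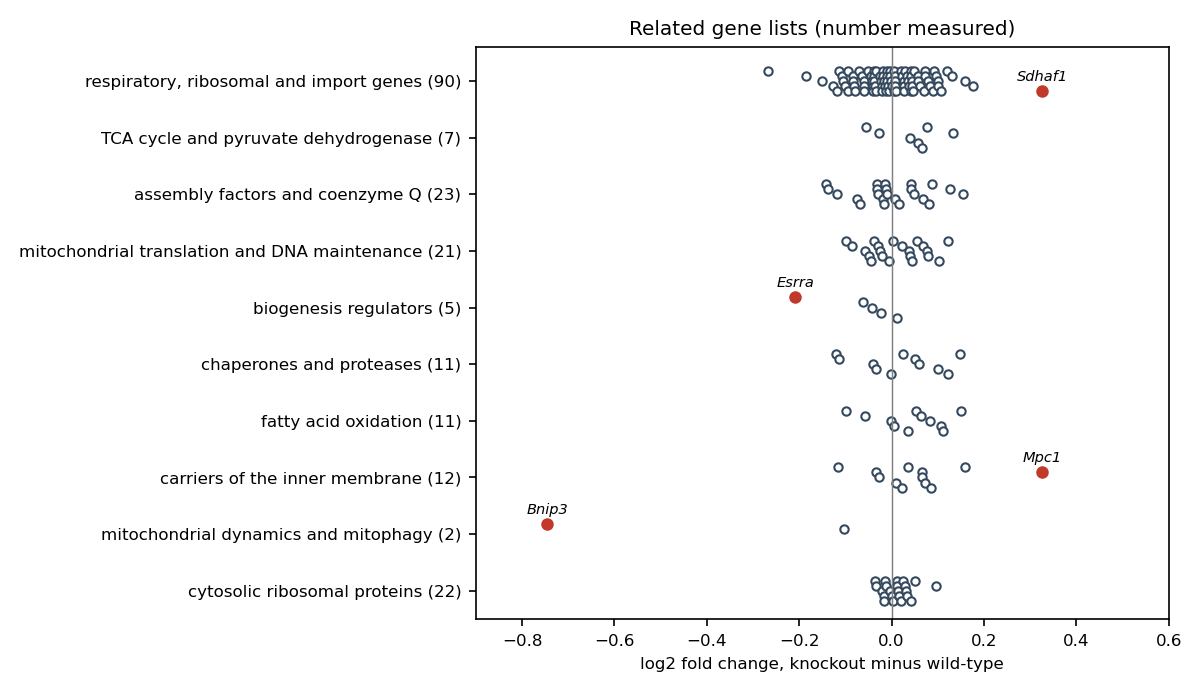
Log2 fold changes of the 90 mitochondrial genes (top row) and of 9 related lists, each point a gene, filled where the gene passed the test (limma, 4 knockout RAS against 4 wild-type RAS arrays). Apart from Sdhaf1, filled points are Mpc1 at 0.33, Esrra at -0.21 and Bnip3 at -0.75.

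Promoter motifs were counted as a feature that the rule did not use, with no test of the shares. RefSeq promoter windows were found for 78 of the 90 genes, the first window of each gene being read. The NRF1 core lay in 12 windows (15.4%), against 3.55% of the 7301 windows of genes tested and 2.80% of all 27025 genes in the promoter table. The ETS core lay in 28 windows (35.9%), against 11.9% and 9.12% in the same order. Either core was found in 35 windows (44.9%, against 14.7% of windows of genes tested), among them those of Uqcrc1, Atp5l, Mrps12, Timm13, Timm23 and Ndufaf5, and both cores in 5, those of Sdhb, Atp5l, Uqcr11, Mrpl22 and Mrps18b. Windows with neither core included those of Mrpl24, Mrpl20, Mrpl55, Ndufv3, Ndufa4, Atp5b and Tomm40. The GC content of the windows was not compared between members and other genes. The NF-kB motif lay in 0 of 78 windows, which allows a share of up to 3.85% for counting error alone, and in 0.438% of windows of genes tested.

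Some markers of other cells moved in the same arrays, where 8.90% of all genes tested were called, 4.47% higher and 4.43% lower. Of 10 fibroblast markers, 6 were measured, of which 5 fell and Postn rose, and their mean log2 signal was 6.05 to 6.24 in knockout RAS and 6.49 to 6.61 in wild-type RAS arrays. None of the 6 lay under the highest array median. Of 5 melanocyte markers, 3 were measured, of which Pmel fell and 2 did not pass, with a mean of 9.28 to 9.57 in knockout RAS and 9.63 to 9.72 in wild-type RAS arrays. None of the 6 measured leukocyte markers, 3 endothelial and 2 skeletal muscle markers passed in limma. At an unadjusted p under 0.05, 3 were lower (Cd68, Adgre1 and Pecam1) and none higher, against 10.9% of all genes lower and 9.90% higher. Pecam1, Tie1 and Tnnc2 lay under the highest array median. The leukocyte mean was 4.67 to 4.78 in knockout RAS and 4.73 to 4.86 in wild-type RAS arrays, with Itgam and Adgre1 under the array medians. Among the keratinocyte markers Col17a1 fell and 4 did not pass, Krt5 among them, whose knockout values all lay below the wild-type values with a difference of -0.13 (limma adjusted p = 0.167). The part of these cells in the differences of Sdhaf1, Mpc1, Bnip3 and ND5 was not tested.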

How the data were processed

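Biotin-labelled total RNA of 8 keratinocyte cultures was measured on 1-colour arrays, and the labels call the 4 samples of each genotype biological replicates. The authors deposited log2 signals of 11373 probe sets on every array. The log2 unit was inferred from the values, and how they were summarised, normalized or filtered is not given in the sources used. Probe sets were named through the platform annotation: 9374 had 1 symbol, 479 had several and 1520 had none in it. Each gene was represented by its probe set with the highest mean, which gave 9294 genes. Of the 90 members, 6 had an s_at probe set, which can bind several transcripts (Atp5e, Mrpl37, Mrps12, Ndufa2, Ndufaf7 and Timm8a2). Which transcripts gave their signals was not tested. All 90 matched the reference annotation by Entrez identifier.

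The test was limma 3.58.1 (lmFit, then eBayes) under R 4.3.3 with no covariate, fitted over all 9294 genes, with Benjamini-Hochberg adjustment over them and a threshold of 0.05, and the code was first tested on simulated data. Intervals are 95% intervals of the fit. The number of arrays limits the precision. Same-numbered arrays did not deviate together across genes (r = 0.085, -0.001, 0.031 and -0.049). The labels do not say whether same-numbered cultures shared a preparation, and these correlations cannot decide it. The main fit left the samples unpaired, and the replicate block was run as an alternative. The alternatives tried were an intensity trend in eBayes, a replicate block, each array left out, a second quantile normalization, arrays centred on their medians, removal of the dimmest 25% of genes, averaging over a gene's probe sets, and, added after seeing the data, leaving out genes under the highest array median.

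Members and lists were chosen with earlier results of these data known. Named genes were, by rule, up to 15 called members in each direction, the brightest member and the one with the largest difference of each role, up to 4 called genes of each related list, and pairs of complex IV isoforms. This gave 24 genes, 21 of them members. Any other gene named was chosen after its values were seen.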

Additional observations from a re-analysis of the deposited data

Results flagged for a closer look

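In a group of 4 arrays, a value was picked out where its gap to the nearest other value, divided by the range of the group, exceeded Dixon's 95% critical value. Of 102 groups of 4 checked, 6 were picked out, and chance picks about 5 in 100. In knockout RAS replicate 3, Cox4i2 had a log2 signal of 5.17, against 4.69 to 4.75 in the other 3 knockout arrays, and Mrpl48 had 8.24, against 8.13 to 8.14. In wild-type RAS replicate 4, Esrra had 8.44, against 8.28 to 8.30 in the other 3 wild-type arrays, and Ndufa9 had 9.99, against 10.03 in each. Ndufa1 in wild-type RAS replicate 2 was at 11.20, against 11.25 in the others, and Mrps28 in wild-type RAS replicate 3 was at 8.99, against 8.88 to 8.89. Among these genes Esrra was the 1 called.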

How the results depend on the processing

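Sdhaf1 stayed called and higher in all 15 alternatives, with adjusted p-values from 9.6e-05 to 0.0090. The number of members called higher was 2 in place of 1 with repeated quantile normalization, with arrays centred on their medians, with the lowest 25% of genes left out, and with genes under the highest array median left out, and 3 with the intensity trend. Members called lower were 2 in place of 0 with the intensity trend and with genes under the highest array median left out. Without single arrays, 1 member was called higher in every run and 0 to 1 lower, the 1 being Ndufa4l2 without wild-type RAS replicate 1. The members that passed in some alternative beside Sdhaf1 were Mrpl24, Ndufa4l2, Ndufaf5, Ndufv3 and Atp5l. The share of members called ran from 1.11% to 5.56%, and that of all genes from 6.43% to 20.8%, the higher share of members being that of the intensity trend, where 12.1% of all genes were called. The median difference of the members was 0.022 with arrays centred on their medians, where the median of all genes was 0.015 in place of -0.012, since centring moved every difference by one amount, and lay between -0.010 and 0.022 over all settings. With the replicate block, 1 member was called higher and 0 lower with a median of -0.005, and 659 genes were called in place of 827. The difference turned sign in some alternative for 10 named genes, none of them called: Atp5g3, Cox5b, Cox7a1, Cox8b, Mrpl20, Ndufa4, Timm23, Tomm40, Uqcr11 and Uqcrfs1. For signals near or below the array medians, as in most complex IV genes, no direction can be read.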

Other observations

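A further 7 probe sets name a member of these families beside another gene or a pseudogene, and were left out by the rule. In a fit over all 11373 probe sets, none of the 7 passed in limma, and 2 had an unadjusted p under 0.05. The shares of all probe sets at these thresholds were not counted. In the fit over genes they were 8.90% and 20.8% of all genes in the same order. The probe set shared by Mrpl53, of the large mitoribosomal subunit, and Ccdc142 had log2 signals of 9.98, 9.996, 10.08 and 10.06 in knockout RAS arrays, against 9.91, 9.90, 9.90 and 9.86 in wild-type RAS arrays (limma adjusted p = 0.140). The one shared by Mrps34 and Nme3 was at 7.52 in knockout RAS and 7.37 in wild-type RAS arrays (limma adjusted p = 0.122), while the probe set that names Mrps34 alone had a difference of 0.02. Which of the 2 genes carries the signal was not tested.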
